A study of Homo sapiens with 6 samples.

Results

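The genes described here code for the machines that bring proteins into mitochondria and for the SLC25 carriers that move small molecules across the mitochondrial inner membrane. Members were taken by gene symbol from the array annotation: TOMM, TIMM and GRPEL genes, SAMM50, MTX1 to MTX3 and PAM16 as the import group, and numbered SLC25A genes as the carrier group. This gave 74 genes of the 19775 that the arrays measured with a probe set of their own, 29 of them import genes and 45 carriers. Each gene was read from its brightest probe set. The RNA came from U251, an established human glioma cell line. In 3 arrays the cells overexpressed PARK2, the gene of the ubiquitin ligase parkin, and in 3 control arrays they overexpressed GFP. Each stable line had been infected with virus and then selected in puromycin, so control cells carry a virus and the selection as well. The labels name neither the promoter that drives the transgene nor whether a line is a pool or a single clone. The arrays are called biological replicates, without a word on separate cultures or infections, so the p-values here speak only to the scatter among these 6 arrays, and that scatter may be technical.

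Nearly all mitochondrial proteins are made in the cytosol and enter through the translocase of the outer membrane, TOM, in which TOMM20, TOMM22 and TOMM70 are receptors and TOMM40 is the channel. Proteins with a presequence then pass the inner membrane through the TIM23 channel, pulled by an ATP-driven motor. Carrier proteins are escorted by small TIM chaperones to the TIM22 complex, and beta-barrel proteins go to the outer-membrane SAM complex. The SLC25 carriers are clients of the same route, and each exchanges or carries its own substrates, from ADP and ATP to phosphate, amino acids and cofactors. Parkin is tied to this route in textbook accounts, because the kinase PINK1 is imported and degraded in healthy mitochondria and recruits parkin when import fails.

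Values are intensities, in the arbitrary units of the deposited table. A difference is the PARK2 mean minus the control mean of log2(intensity + 16), which understates the change of dim genes. Rose, fell, higher and lower are used for an adjusted p under 0.05 from limma with Benjamini-Hochberg adjustment over 13720 genes. Of the 74 members, 67 passed the filter on dim probe sets and were tested, 28 import genes and 39 carriers. Not tested were TIMM23, SLC25A21, SLC25A27, SLC25A31, SLC25A41, SLC25A47 and SLC25A53. SLC25A6, SLC25A52, TOMM20L, TOMM6 and TOMM7 are not analysed here. Array medians were 16.2 to 19.3 units in PARK2 and 16.7 to 18.4 units in control arrays, and control replicate 1 had the highest 2% trimmed mean (168 units against 137 to 155 units for the other 5). Of 9 glioma and astrocyte markers 8 passed the filter (all but AQP4), and the summed intensity ran from 24420 to 25195 units in PARK2 and from 21936 to 25958 units in control arrays. Most of this sum came from VIM, CD44 and SOX2, and ALDH1L1 was dim (means of 19.7 units in PARK2 and 19.8 units in control cells). The sum therefore says little of the other markers. GFAP (a difference of 0.53) and SOX2 (0.30) were higher in PARK2 cells, and S100B (-1.39) and SLC1A3 (-0.72) were lower. Of the markers of other cells, 1 of 5 epithelial, 1 of 3 leukocyte, 1 of 3 endothelial, 2 of 4 neuronal and 2 of 3 oligodendrocyte genes passed the filter, and EPCAM, PTPRC and CDH5 did not. The epithelial markers summed to 101 to 112 units in PARK2 and 191 to 269 units in control arrays, mostly from KRT18, which was lower (-1.12), while EPCAM, CDH1, KRT5 and KRT14 were under the filter. The leukocyte markers summed to 26.5 to 42.4 units in PARK2 and 11.1 to 20.4 units in control arrays, all dim, and CD3E, the one tested, did not pass (0.27). The neuronal markers summed to 461 to 560.4 units in PARK2 and 467 to 628 units in control arrays, mostly from MAP2, which did not pass (-0.26), while the dimmer SNAP25 was higher (1.26). The endothelial (26.5 to 51.8 units in PARK2, 38.3 to 45.6 units in control arrays) and oligodendrocyte markers (53.4 to 89.4 units in PARK2, 79.4 to 117 units in control arrays) gave no call. The part of these markers in the results below was not tested. In an RNA sample of many cells, fewer cells of a kind and less RNA per cell cannot be told apart.

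Of the 67 tested members, 4 rose and 12 fell in PARK2 cells, and 51 did not pass the test. That is 23.9% called, beside 28.8% of all 13720 genes (13.3% higher and 15.6% lower). Among import genes 1 rose and 4 fell (17.9% of 28), with a median difference of -0.06 and a range of -1.37 to 0.64. Among carriers 3 rose and 8 fell (28.2% of 39), with a median of 0.10 and a range of -0.68 to 1.03. The median over all genes was -0.0026. The 3 PARK2 arrays lay all above or all below the 3 control arrays in 8 of 28 import genes (1 above, 7 below) and in 17 of 39 carriers (8 above, 9 below), beside 39.5% of all genes tested. Without control replicate 1 the import median was 0.05, and without control replicate 3 the carrier median was -0.03, so neither median has a settled sign.

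**Figure D1:**
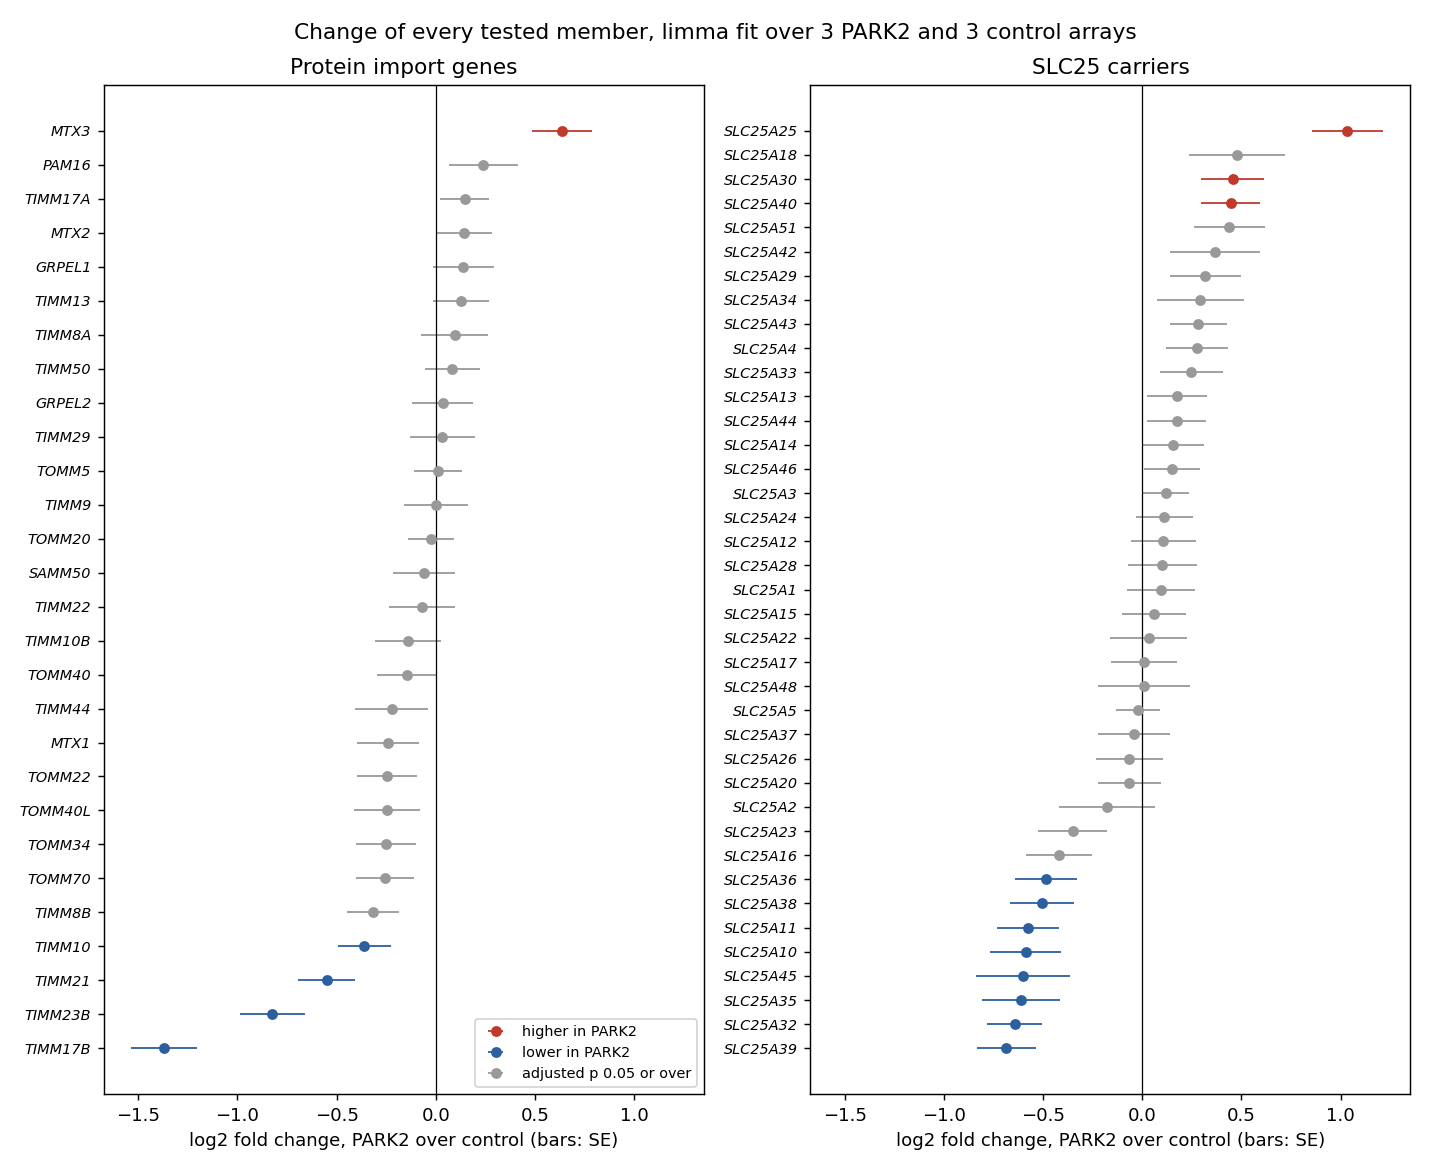
Difference of each tested member, PARK2 over control, on the log2(intensity + 16) scale, for 28 import genes (left) and 39 SLC25 carriers (right). Points are limma estimates and bars their standard errors; the 4 members that rose and the 12 that fell are coloured, with TIMM17B at -1.37 and SLC25A25 at 1.03 as the ends of the range.

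The largest difference in the import machinery was in the TIM23 channel. TIMM17B, 1 of a pair of alternative TIMM17 subunits of the channel, was the member that fell most. It read 241, 167 and 169 units in PARK2 cells, against 635, 508 and 425 units in control cells. Every PARK2 array was below every control array, with means of 192 ± 42.2 units in PARK2 and 522 ± 106 units in control cells (SD, n = 3 each). The limma difference was -1.37 with an SE of 0.16 and an adjusted p of 3.5e-10. The paralog TIMM17A read 3453, 2869 and 3164 units in PARK2 cells, against 3297, 2762 and 2538 units in control cells. Its arrays overlapped between the groups, and the difference of 0.15 did not pass (limma adjusted p = 0.436, 95% interval -0.10 to 0.40). The 3 tested probe sets of TIMM17A, of 4, gave a difference between 0.15 and 0.22, and none was called.

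TIMM21, which links the TIM23 complex to the TOM complex and to newly imported respiratory chain subunits, also fell. It read 727, 804 and 802 units in PARK2 cells, against 1369, 1111 and 983 units in control cells, a difference of -0.55 (SE 0.14, limma adjusted p = 0.0020). The groups did not overlap, and a second probe set gave the same direction (-0.56, also called). TIMM23B, a near-identical copy of the channel gene TIMM23, read 121, 147 and 125 units in PARK2 cells, against 262, 234 and 236 units in control cells. This was a difference of -0.82 (SE 0.16, limma adjusted p = 5.1e-05), with all PARK2 arrays below all control arrays. The array's only probe set for TIMM23 alone stayed between 0.97 and 3.06 units on all 6 arrays, under the filter floor of 9.87 units, and 3 probe sets assigned to both genes were not used. The TIMM23B value is therefore uncertain as to which of the copies it reads. TIMM50, the receptor that hands presequences to the channel, had means of 1117 ± 40.9 units in PARK2 and 1057 ± 118 units in control cells (SD, n = 3 each), with overlapping arrays. Its difference was 0.08, and a dim second probe set gave -0.09, neither called.

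The motor that pulls presequence proteins into the matrix did not pass the test in any of its 4 members. These are too few genes to set beside the 28.8% of all genes that were called. TIMM44, which anchors the motor to the channel, read 114, 131 and 132 units in PARK2 cells, against 104, 229.5 and 137 units in control cells, where control replicate 2 stood well above the others. Its difference was -0.22 (95% interval -0.59 to 0.15). PAM16, a J-like regulator of the motor (0.24), and the nucleotide exchange factors GRPEL1 (0.14) and GRPEL2 (0.03) had overlapping arrays as well.

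None of the TOM genes tested passed, beside 28.8% of all genes called. They are few, and the difference in share was not tested. TOMM20, the presequence receptor, read 4340.2, 4438 and 4389 units in PARK2 cells, against 5039, 4249 and 4157 units in control cells, a difference of -0.02 (95% interval -0.26 to 0.21). Its PARK2 arrays lay within the range of its control arrays. TOMM22, the central receptor, read 526, 454 and 541 units in PARK2 cells, against 670.3, 611 and 534 units in control cells (-0.25, limma adjusted p = 0.238). TOMM70, the receptor for carrier proteins, read 513, 579 and 542 units in PARK2 cells, against 712, 634 and 614 units in control cells. Here the PARK2 arrays were all below the control arrays, but the difference of -0.25 did not pass (limma adjusted p = 0.207). A second TOMM70 probe set gave 0.01, with overlapping arrays, so the lower readings rest on the brightest probe set. The channel gene TOMM40 read 456, 454 and 439 units in PARK2 cells, against 558, 505 and 439 units in control cells, with a difference of -0.14. TOMM40L, its paralog (-0.25), TOMM34, a cytosolic co-chaperone (-0.25), and TOMM5, a small TOM subunit (0.01), did not pass either.

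MTX3, a metaxin of the SAM complex, was the only import gene that rose. It read 684, 693 and 651 units in PARK2 cells, against 519, 374 and 407 units in control cells. All PARK2 arrays were above all control arrays, and the difference was 0.64 (SE 0.15, limma adjusted p = 6.8e-04). A second, dim probe set gave 0.40 and was not called. SAMM50, the beta-barrel channel of the complex, read 364, 402 and 409 units in PARK2 cells, against 479, 408 and 348 units in control cells, with a difference of -0.06 (95% interval -0.37 to 0.25). MTX1 (-0.24) and MTX2 (0.14), the other metaxins, had overlapping arrays.

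Of the 6 small TIM chaperones, which carry hydrophobic proteins through the intermembrane space, TIMM10 fell and 5 did not pass. That is 16.7%, beside 28.8% of all genes called and 15.6% lower. TIMM10 read 1908, 1727 and 1876 units in PARK2 cells, against 2987, 2205 and 1993 units in control cells, a difference of -0.36 (SE 0.13, limma adjusted p = 0.0347). The groups did not overlap, but control replicate 1 was far above the other control arrays. The call was lost without control replicate 1 (adjusted p = 0.103) or 2 (0.0609) and without any 1 of the PARK2 arrays (0.0717 to 0.183). It was also lost with no filter on dim probe sets and without limma's variance trend. When all probe sets were tested, neither this TIMM10 probe set (limma adjusted p = 0.0849) nor a second one (-0.44, limma adjusted p = 0.0636) was called. TIMM8B (-0.32, limma adjusted p = 0.0599) was below control on every PARK2 array, and TIMM8A (0.10), TIMM9 (0.00), TIMM10B (-0.14) and TIMM13 (0.13) had overlapping arrays. In the TIM22 complex, which inserts carriers, TIMM22 read 210.2, 178 and 199 units in PARK2 cells, against 246, 199.9 and 177 units in control cells (-0.07, 95% interval -0.40 to 0.26). Its dimmer probe sets gave 0.34 and 0.26, and neither was called. TIMM29, another subunit of that complex, had a difference of 0.03.

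The start regions of import genes are shown because letters bound by ETS-family factors were frequent in them. RefSeq windows of GRCh38.p14, from 250 bases before to 50 bases after the gene start (300 bases, 5′ to 3′ on the gene's strand), were available for 26 import genes and 38 carriers. The letters CCGGAAG, or CTTCCGG on the other strand, were found in 13 of 26 import windows (50%), in 8 of 38 carrier windows (21.1%), in 17.9% of the windows of tested genes and in 10.7% of all windows. Shown are the windows of MTX3, the import gene that rose (chr5:79991213-79991512, minus strand), and of the 4 that fell, TIMM10 (chr11:57530705-57531004, minus strand), TIMM23B (chr10:49941803-49942102, plus strand), TIMM21 (chr18:74148273-74148572, plus strand) and TIMM17B (chrX:48897719-48898018, minus strand). Capitals mark the letters where a window holds them. The match begins 8 bases before the start in MTX3, 55 and 13 bases before it in TIMM10, and 49 and 42 bases before it, side by side, in TIMM23B. TIMM21 and TIMM17B hold none in this window.
MTX3: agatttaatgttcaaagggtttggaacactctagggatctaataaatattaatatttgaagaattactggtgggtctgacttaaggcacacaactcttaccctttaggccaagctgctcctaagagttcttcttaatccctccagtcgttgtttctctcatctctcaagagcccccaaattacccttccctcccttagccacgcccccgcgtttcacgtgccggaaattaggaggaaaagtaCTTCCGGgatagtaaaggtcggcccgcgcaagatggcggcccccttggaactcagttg
TIMM10: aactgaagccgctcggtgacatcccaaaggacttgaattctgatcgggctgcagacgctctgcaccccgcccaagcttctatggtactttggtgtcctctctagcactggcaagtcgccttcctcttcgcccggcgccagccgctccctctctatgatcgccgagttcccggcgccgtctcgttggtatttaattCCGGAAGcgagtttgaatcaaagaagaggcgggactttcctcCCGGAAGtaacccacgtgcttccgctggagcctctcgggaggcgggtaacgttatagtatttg
TIMM23B: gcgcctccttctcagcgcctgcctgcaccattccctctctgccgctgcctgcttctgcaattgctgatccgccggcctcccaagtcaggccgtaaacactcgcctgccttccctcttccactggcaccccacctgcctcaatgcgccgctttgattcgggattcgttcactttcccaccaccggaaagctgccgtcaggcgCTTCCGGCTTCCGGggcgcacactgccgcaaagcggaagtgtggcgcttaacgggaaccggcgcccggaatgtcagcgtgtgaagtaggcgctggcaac
TIMM21: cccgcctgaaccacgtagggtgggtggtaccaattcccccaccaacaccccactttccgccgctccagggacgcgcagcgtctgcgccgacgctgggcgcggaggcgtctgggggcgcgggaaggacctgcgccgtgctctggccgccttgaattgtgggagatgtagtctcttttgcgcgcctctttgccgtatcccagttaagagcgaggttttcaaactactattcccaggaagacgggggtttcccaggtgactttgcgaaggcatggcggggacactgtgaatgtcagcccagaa
TIMM17B: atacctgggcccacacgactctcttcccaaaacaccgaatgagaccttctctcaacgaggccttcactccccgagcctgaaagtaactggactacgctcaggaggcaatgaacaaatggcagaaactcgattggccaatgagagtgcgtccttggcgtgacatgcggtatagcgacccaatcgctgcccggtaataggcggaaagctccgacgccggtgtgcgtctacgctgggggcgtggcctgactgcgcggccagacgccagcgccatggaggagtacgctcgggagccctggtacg

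By direction, the CCGGAAG letters were in the window of 1 of 3 members that rose, 3 of 10 that fell and 15 of 45 that did not pass. The NRF1 letters GCGCATGCG (CGCATGCGC on the other strand) were in 1 of 26 import windows, that of TIMM9, and in 0 of 38 carrier windows, beside 3.51% of tested genes' windows and 2.1% of all windows. The CCAAT box, searched as these letters on both strands, was in 42.3% of import and 47.4% of carrier windows, beside 36.8% of tested genes' and 35.7% of all windows. A match describes the letters in a window and shows no binding.

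SLC25A25 had the largest difference among the 4 members that rose. It codes for an ATP-Mg/phosphate carrier, a calcium-regulated exchanger that adjusts the adenine nucleotide pool of the matrix. It read 156, 170.4 and 197 units in PARK2 cells, against 108, 73.9 and 55.3 units in control cells. Means were 174 ± 20.9 units in PARK2 and 78.9 ± 26.5 units in control cells (SD, n = 3 each), the groups did not overlap, and the difference was 1.03 (SE 0.18, limma adjusted p = 4.8e-06). Its relatives SLC25A24 and SLC25A23 did not pass. SLC25A24 read 893, 1364 and 1363 units in PARK2 cells, against 1043, 1093 and 1153 units in control cells (0.11, limma adjusted p = 0.638), with PARK2 replicate 1 at the low end. A second, dim SLC25A24 probe set gave -0.03. SLC25A23 read 84.1, 83.5 and 99.8 units in PARK2 cells, against 124, 115 and 114 units in control cells. All its PARK2 arrays were below the control arrays, but the difference of -0.35 did not pass (limma adjusted p = 0.131).

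The window of SLC25A25 (chr9:128098257-128098556, plus strand, RefSeq GRCh38.p14, cut as above) is shown for the full palindrome TGACGTCA, the letters of a cAMP response element, which capitals mark and which begins 200 bases before the start. These letters were in 3 of 38 carrier windows, those of SLC25A25, SLC25A33 and SLC25A36, and in 0 of 26 import windows, beside 3.16% of tested genes' and 1.98% of all windows. Of these 3 carriers, SLC25A25 rose, SLC25A36 fell and SLC25A33 did not pass.
SLC25A25: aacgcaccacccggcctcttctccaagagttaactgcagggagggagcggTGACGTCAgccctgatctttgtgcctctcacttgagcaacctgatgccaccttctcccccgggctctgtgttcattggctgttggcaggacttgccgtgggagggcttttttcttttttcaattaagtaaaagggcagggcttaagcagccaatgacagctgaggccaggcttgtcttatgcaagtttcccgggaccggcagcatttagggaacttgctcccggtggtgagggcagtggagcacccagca

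The carriers that feed oxidative phosphorylation directly did not pass, too few genes to set beside the 28.8% of all genes called. SLC25A3, the phosphate carrier, read 4961, 4651 and 4754 units in PARK2 cells, against 5028, 4132 and 4128 units in control cells (0.12, 95% interval -0.11 to 0.35). A second and dimmer SLC25A3 probe set gave 0.57 and was called when all probe sets were tested (limma adjusted p = 0.0421), so its probe sets disagree. The ADP/ATP carriers SLC25A4 and SLC25A5 differed by 0.28 and -0.02. SLC25A4 was above control on every PARK2 array without passing (limma adjusted p = 0.193), and a second, dim probe set gave -0.02.

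Among carriers of di- and tricarboxylates, which link the citric acid cycle to the cytosol, 2 of 3 fell, too few genes to set beside the 15.6% of all genes that fell. SLC25A11, the oxoglutarate/malate carrier, read 319, 309 and 300.4 units in PARK2 cells, against 575, 457 and 391 units in control cells, a difference of -0.57 (SE 0.16, limma adjusted p = 0.0032). A second SLC25A11 probe set gave -0.46 and was not called when all probe sets were tested (limma adjusted p = 0.0596). SLC25A10, the dicarboxylate carrier, read 87.1, 83.8 and 76.9 units in PARK2 cells, against 139, 166 and 98.8 units in control cells, a difference of -0.59 (SE 0.18, limma adjusted p = 0.0089). Neither gene's groups overlapped, and in both the control arrays were spread more widely than the PARK2 arrays. The SLC25A10 call was lost without control replicate 2 (adjusted p = 0.144) and with no filter on dim probe sets. The citrate carrier SLC25A1 had a difference of 0.10, with control arrays from 157 to 305 units around PARK2 arrays from 218 to 258 units.

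The glutathione carriers moved in opposite directions. SLC25A39, a carrier that brings glutathione into mitochondria, read 520.4, 543 and 549.7 units in PARK2 cells, against 1072, 843 and 738 units in control cells. It fell by 0.68 (SE 0.15, limma adjusted p = 2.0e-04), with no overlap. Its paralog SLC25A40 read 618, 656 and 676 units in PARK2 cells, against 491, 499 and 430.1 units in control cells, and rose by 0.45 (SE 0.15, limma adjusted p = 0.0166). Both probe sets of SLC25A40 were higher (0.45 and 0.87), but its call was lost with the replicate number as a block (adjusted p = 0.0525) and without PARK2 replicate 2 (0.0927) or 3 (0.0999) or control replicate 2 (0.0523).

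Of 8 tested carriers of nucleotides and cofactors 2 fell and 6 did not pass. That is 25%, beside 28.8% of all genes called and 15.6% lower, and the difference in share was not tested. SLC25A32, which is known for carrying folate into the matrix, read 797, 901 and 948 units in PARK2 cells, against 1411, 1415 and 1320.5 units in control cells, a difference of -0.64 (SE 0.14, limma adjusted p = 1.7e-04). The groups were far apart relative to their spread. SLC25A36, a pyrimidine nucleotide carrier, read 338, 476 and 464 units in PARK2 cells, against 530.2, 666 and 599 units in control cells (-0.48, SE 0.15, limma adjusted p = 0.0127). All 5 of its probe sets were negative and 2 were called. The call was lost without PARK2 replicate 1 (adjusted p = 0.184) or control replicate 2 (0.127). It was also lost with the mean of its probe sets, with no filter on dim probe sets and without limma's variance trend. SLC25A33, its relative, read 320.02, 477 and 412 units in PARK2 cells, against 359, 318 and 322 units in control cells, with a difference of 0.25 and overlapping arrays. Just outside the threshold stood SLC25A16, a putative coenzyme A carrier (-0.42, limma adjusted p = 0.0507), and SLC25A51, the NAD carrier (0.44, limma adjusted p = 0.0562). SLC25A16 had 1 of 4 probe sets called lower (-0.65) and 1 at 0.01, while the second probe set of SLC25A51 gave -0.22. SLC25A42, a coenzyme A carrier (0.37), SLC25A26, the S-adenosylmethionine carrier (-0.06), and the peroxisomal SLC25A17 (0.01) did not pass.

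Amino acid carriers gave a single call. Called were 0 of 4 aspartate and glutamate carriers, 0 of 3 for ornithine and basic amino acids, and 1 of 3 for carnitine and other amino acids. Of all genes 28.8% were called. SLC25A38, a glycine carrier needed for haem synthesis, read 223, 258 and 274 units in PARK2 cells, against 452, 312 and 335 units in control cells, a difference of -0.50 (SE 0.16, limma adjusted p = 0.0131). The groups did not overlap, and the call was lost without PARK2 replicate 1 (adjusted p = 0.098). The aspartate/glutamate exchangers SLC25A12 (0.11) and SLC25A13 (0.18), the glutamate carriers SLC25A18 (0.48) and SLC25A22 (0.03), and the ornithine carriers SLC25A15 (0.06) and SLC25A2 (-0.18) did not pass. Nor did SLC25A29, for basic amino acids (0.32), SLC25A44, for branched-chain amino acids (0.17), and SLC25A20, for acylcarnitines (-0.07). SLC25A18 was dim, at 15.3, 15.0 and 27.7 units in PARK2 cells, against 10.1, 11.2 and 6.14 units in control cells. A second, dim SLC25A15 probe set gave -0.42 and was not called.

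The iron carriers, or mitoferrins, SLC25A37 and SLC25A28 had differences of -0.04 and 0.10 that did not pass. SLC25A37 read 228, 432 and 568 units in PARK2 cells, against 355, 394 and 439.8 units in control cells, so that the PARK2 arrays reached past the control arrays on both sides. Of its 10 probe sets 1 was called, and higher (0.65). Among the uncoupling-protein-like carriers SLC25A30 rose, with 361, 344 and 405 units in PARK2 cells, against 306, 243 and 249 units in control cells (0.46, SE 0.16, limma adjusted p = 0.0222). Its groups did not overlap, but the call was lost without any 1 of the PARK2 arrays (adjusted p = 0.0575 to 0.153), without control replicate 2 (0.15) and with the replicate block (0.0625). SLC25A14, its relative, read 413, 439.9 and 401 units in PARK2 cells, against 457, 344 and 329 units in control cells, and did not pass (0.16).

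Of 5 tested carriers whose substrates are less settled, 2 dim genes fell (40% called, beside 28.8% of all genes, a difference in share that was not tested). SLC25A35 read 32.8, 30.4 and 36.2 units in PARK2 cells, against 63.5, 61.7 and 51.8 units in control cells, with no overlap (-0.61, SE 0.20, limma adjusted p = 0.0138). Its call was lost without PARK2 replicate 2 (adjusted p = 0.0685) or control replicate 2 (0.0628), and with no filter on dim probe sets. A second SLC25A35 probe set gave -0.54 and was not called when all probe sets were tested (limma adjusted p = 0.0706). SLC25A45 read 18.3, 5.48 and 10.8 units in PARK2 cells, against 32.3, 29.7 and 15.1 units in control cells (-0.60, SE 0.24, limma adjusted p = 0.04997). It was the called member whose groups overlapped, and 12 of its 17 alternatives took it past 0.05, among them those without PARK2 replicate 2 (adjusted p = 0.263) or 3 (0.0984) or control replicate 1 (0.204) or 2 (0.166). SLC25A34 (0.29), SLC25A43 (0.28) and SLC25A48 (0.01) did not pass. SLC25A46, an outer-membrane protein of mitochondrial fission and lipid supply, had 0.15 on its brightest probe set and 0.44, called higher, on the other.

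**Figure D2:**
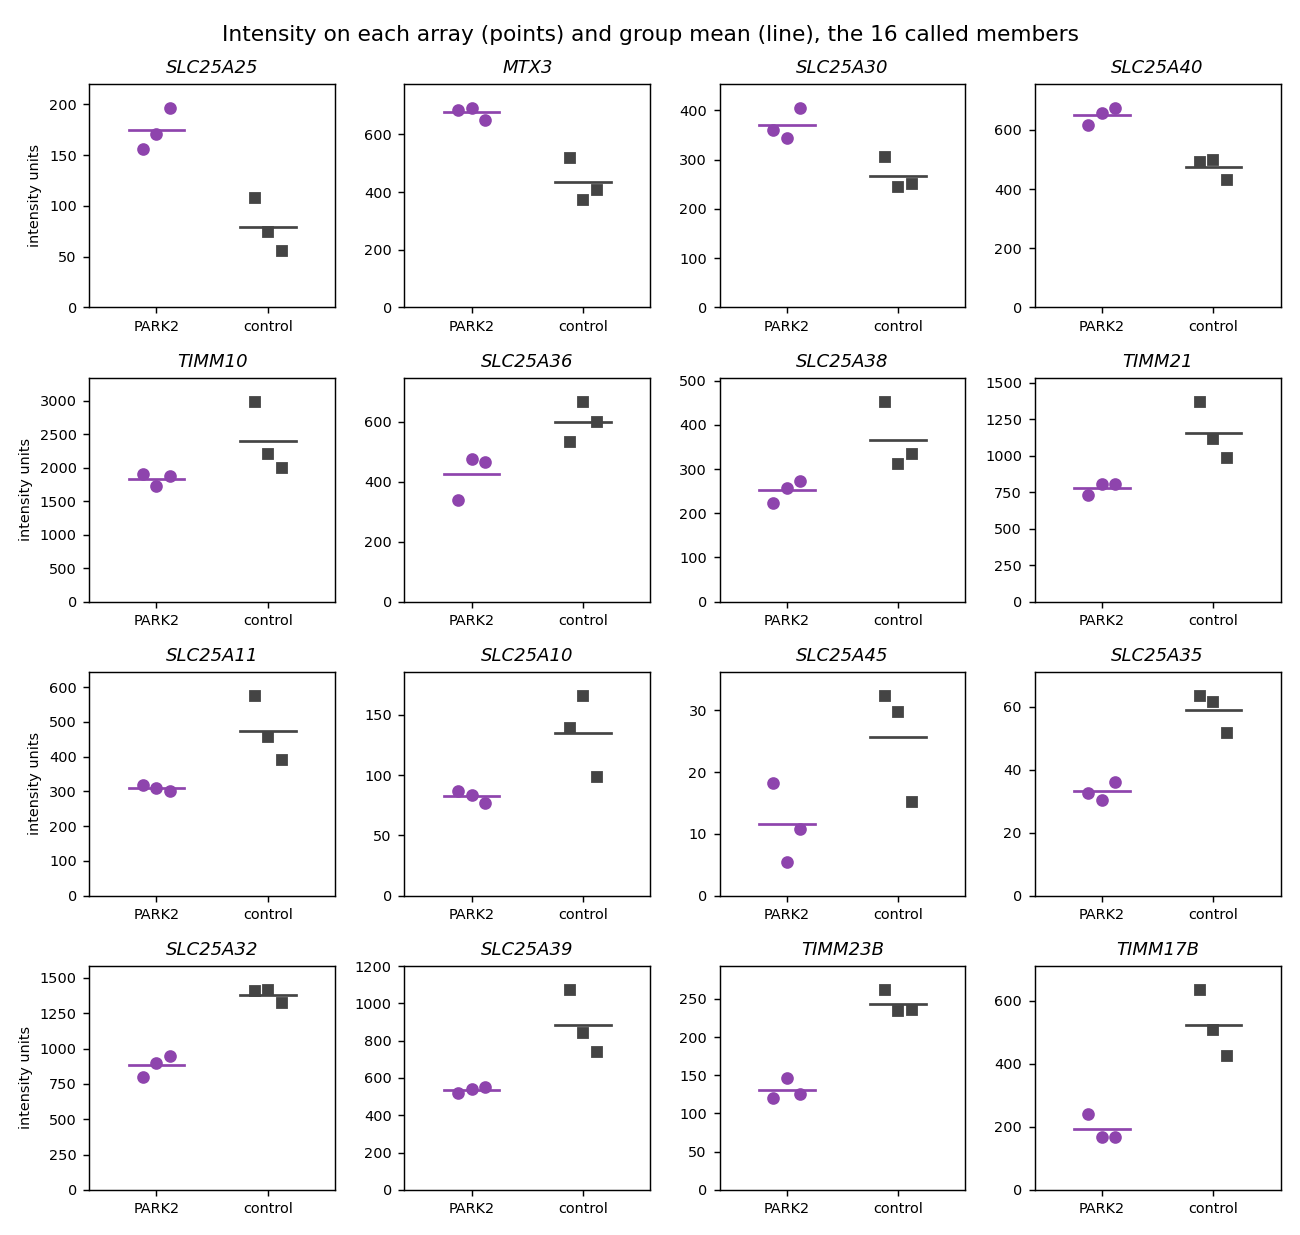
Intensity of the 16 called members on each array, with PARK2 arrays as circles left of control arrays as squares and a line at each group's mean; each panel starts at 0 and has its own scale. PARK2 and control arrays overlap in SLC25A45 and are apart in the other 15.

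Related members were set against each other within each array, which cancels any difference in brightness that both probe sets share. Only the change of such a log2 difference between groups is read, since levels of different probe sets are not comparable. Of 16 pairs, 11 had PARK2 arrays all on one side of the control arrays, which with 3 against 3 arrays gives the smallest exact two-sided permutation p possible, 0.1 (0.145 adjusted over the pairs), so no pair could pass. Single genes had groups that did not overlap in 39.5% of cases, no such share was computed for pairs of other genes, and nothing is read from the count of 11. TIMM17A minus TIMM17B was 3.95 ± 0.18 in PARK2 and 2.43 ± 0.10 in control cells (SD, n = 3 each), a change of 1.52. SLC25A39 minus SLC25A40 was -0.27 ± 0.02 in PARK2 and 0.87 ± 0.20 in control cells, a change of -1.13. The changes were -1.38 for SLC25A23 minus SLC25A25 and 0.73 for SLC25A33 minus SLC25A36. SLC25A12 and SLC25A13 changed least against each other (-0.07, exact permutation p = 0.6), followed by TOMM40 and TOMM40L (0.10, exact permutation p = 0.6). The pairs were chosen as known relatives, with earlier results of these data known.

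**Figure D3:**
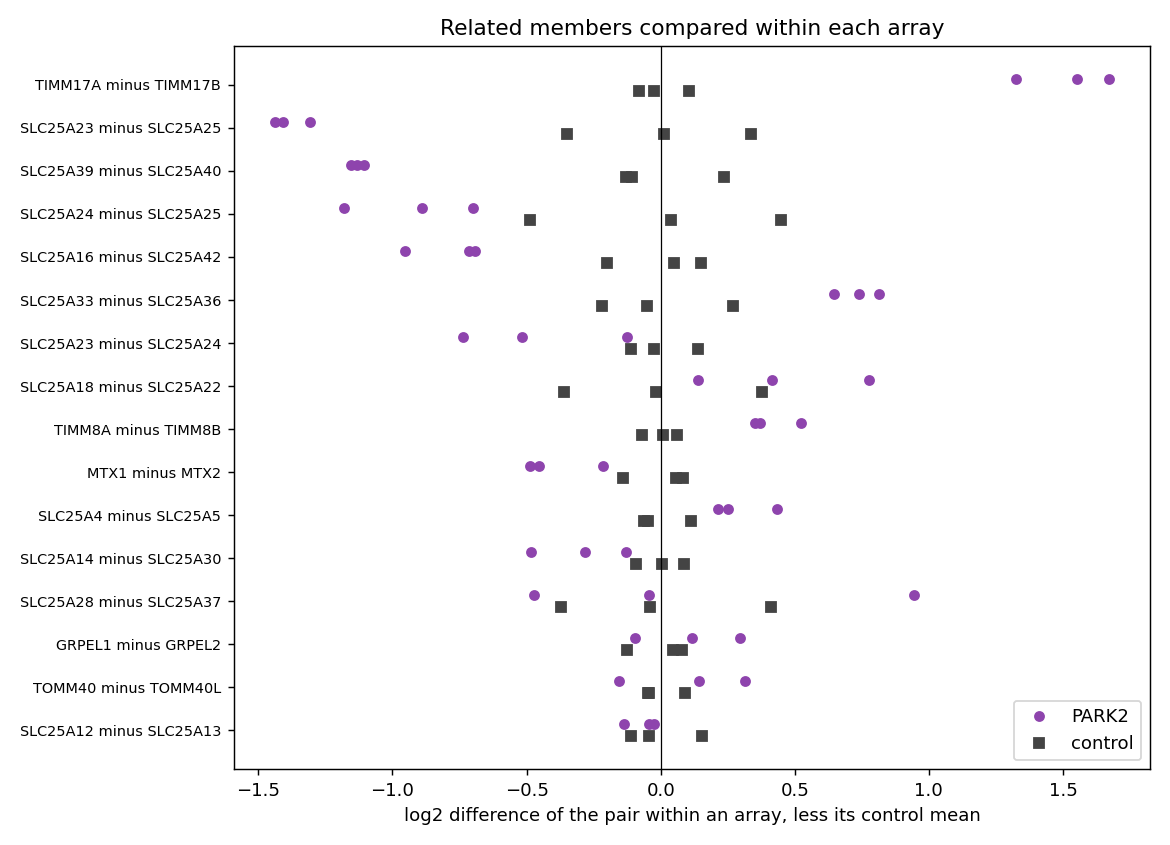
Log2 difference between related members within an array, less the mean of the control arrays, for 16 pairs; PARK2 arrays are circles and control arrays squares. TIMM17A minus TIMM17B lies furthest to the right, by 1.52 on average, and SLC25A23 minus SLC25A25 furthest to the left, by -1.38.

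Members that fell lay among chromosomal neighbours with negative differences. For each member the median difference of the 10 nearest tested genes on each side was taken, in RefSeq order. It was negative for all 12 members that fell and below -0.2 for 9 of them (75%), beside 56.1% of all genes that fell and 21.4% of all tested genes with a position. A negative median was also found for 1639 of the 2138 genes that fell and had a position, and for 6165 of all 13701 tested genes with a position. The median of these values was -0.31 for members that fell, -0.24 for all genes that fell and 0.04 for members that did not pass. Among the neighbours of TIMM17B on the X chromosome 11 of 20 fell and 0 rose (median -0.53), and TIMM17B stood at -0.84 relative to that median. SLC25A32 (median -0.48, 13 of 20 fell), SLC25A11 (-0.43, 10 of 20 fell) and TIMM21 (-0.36, 7 of 20 fell) had low neighbours too, and stood at -0.17, -0.15 and -0.19 relative to them. SLC25A39 stood at -0.65 relative to its neighbours (median -0.04), and TIMM23B at -0.62 (median -0.20). The other members that fell had neighbour medians of -0.10 for TIMM10, -0.12 for SLC25A36, -0.30 for SLC25A38, -0.31 for both SLC25A10 and SLC25A35, and -0.34 for SLC25A45. For the 4 members that rose they were 0.05 for SLC25A30, 0.11 for MTX3, 0.19 for SLC25A25 and 0.20 for SLC25A40. The part of chromosomal position in these results was not tested.

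**Figure D4:**
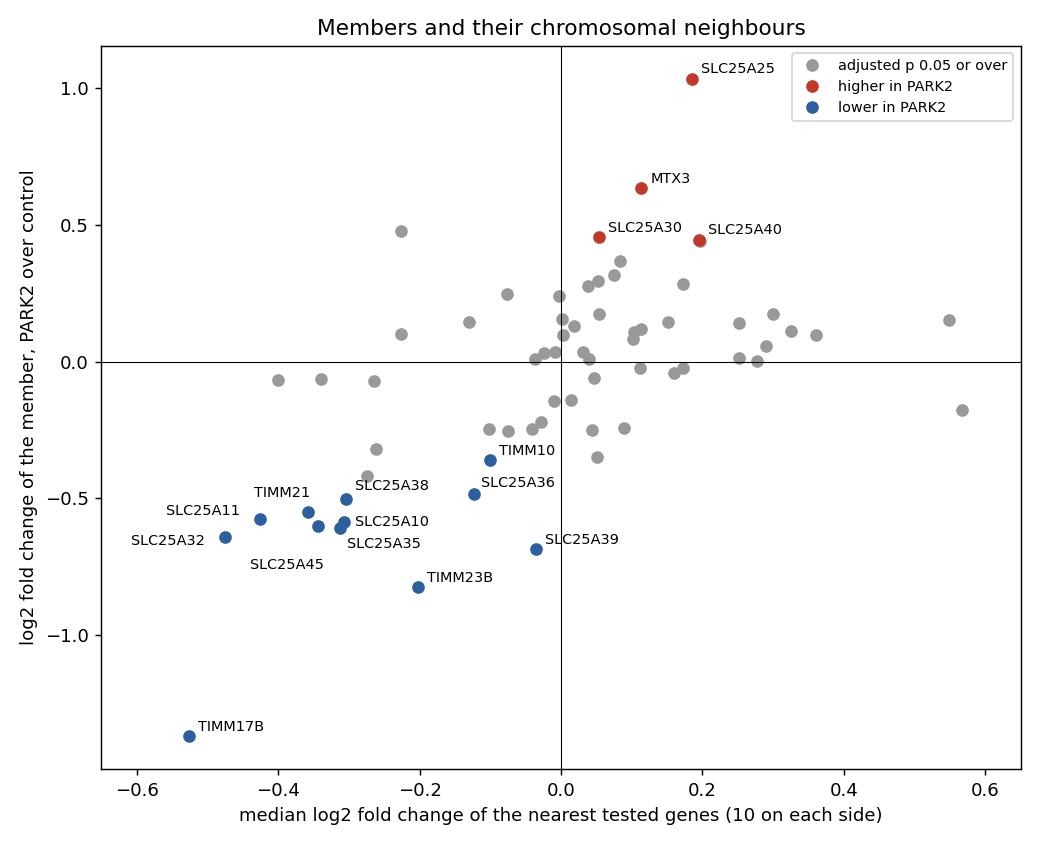
Difference of each tested member against the median difference of its 20 nearest tested genes, both PARK2 over control on the log2(intensity + 16) scale. The 12 members that fell all lie left of 0, and TIMM17B stands lowest, at -1.37 with a neighbour median of -0.53.

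Partner genes of import and carriers were read from lists chosen with earlier results of these data known. Of 58 tested partners 7 rose and 13 fell (34.5%, beside 28.8% of all genes), with a median difference of -0.07. The largest difference among them was that of DNAJC15, a J-protein that can partner the TIM23 motor. It read 28.3, 22.2 and 5.03 units in PARK2 cells, against 103, 80.8 and 87.4 units in control cells, a difference of -1.69 (SE 0.21, limma adjusted p = 1.8e-09). DNAJC19, another J-protein of the inner membrane, rose by 0.42 (limma adjusted p = 0.029), with overlapping arrays. DNAJC19 kept its call in 9 of 18 alternatives, and its adjusted p was 0.222 without control replicate 3. The other 7 of 9 motor partners and matrix chaperones did not pass. Of this list 22.2% were called, beside 28.8% of all genes.

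In the intermembrane-space and insertion list 3 of 7 genes fell and 4 did not pass. That is 42.9%, beside 15.6% of all genes lower and 28.8% called, and the difference in share was not tested. CHCHD4, the oxidoreductase that traps small TIM proteins by forming disulfides, read 291, 273 and 299 units in PARK2 cells, against 547, 438 and 451 units in control cells, a difference of -0.70 (SE 0.15, limma adjusted p = 2.7e-04). GFER, the oxidase that recharges CHCHD4, fell by 0.56 (limma adjusted p = 0.0123, and 0.149 without PARK2 replicate 2) and is named after its values were seen, as is AFG3L2 below. AGK, a kinase that is also a TIM22 subunit, read 665, 539 and 617 units in PARK2 cells, against 1104, 936 and 871 units in control cells, a difference of -0.66. In all 3 genes every PARK2 array was below every control array.

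Of 8 tested mitochondrial proteases 3 fell (37.5%, beside 15.6% of all genes lower and 28.8% called), a difference in share that was not tested. HTRA2, of the intermembrane space, was at -0.77, CLPX, the matrix unfoldase, at -0.72 and AFG3L2, of the inner membrane, at -0.57. Among 10 MICOS and porin genes IMMT, the core of the cristae junction complex, fell by 0.58, APOO fell by 0.47 and 8 did not pass. That is 20%, beside 28.8% of all genes called and 15.6% lower. In presequence processing 2 of 7 genes passed, both higher. That is 28.6%, beside 28.8% of all genes called and 13.3% higher, and the difference in share was not tested. IMMP2L and IMMP1L, subunits of the inner membrane peptidase, rose by 0.65 and 0.39, and IMMP1L kept its call in 7 of 18 alternatives. Cytosolic delivery factors were split, 2 higher and 2 lower of 9 (44.4% called, beside 28.8% of all genes, a difference in share that was not tested). STIP1, which links chaperones to each other, was at -0.53 and BAG1, a chaperone cofactor, at 0.44. In pyruvate and fatty acid entry CPT1C rose by 0.97 and CPT1A fell by 0.39 among 5 genes (40% called, beside 28.8%, again not tested). CPT1C was dim, at 56.9, 48.0 and 62.7 units in PARK2 cells, against 20.4, 34.9 and 10.4 units in control cells. Of 3 SLC25-family genes with other names UCP2, an uncoupling protein, fell by 0.98 and MTCH1, an outer-membrane member of the family, rose by 0.35. That is 66.7% called, of too few genes to set beside 28.8% of all genes. With the mean of its probe sets UCP2 no longer passed (-0.23, limma adjusted p = 0.332). The calls of IMMP1L, STIP1, BAG1, APOO, CPT1A and MTCH1 were likewise lost under some alternatives, with adjusted p up to 0.885, 0.112, 0.174, 0.0809, 0.338 and 0.142, in that order. Leaving out a single array was enough to lose all of these but STIP1.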

How the data were processed

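RNA of 3 PARK2 and 3 GFP control samples of U251 cells had been hybridised to Affymetrix arrays. The deposited table holds 1 linear intensity per probe set and array (54675 probe sets, 62 of them controls), made by the authors. The submitters' processing notes name GCOS and MAS5, with no version, role or scaling target, so the scaling is not given in the sources used here. Gene symbols come from the platform annotation in GEO (41091 probe sets with 1 symbol, 1801 with several and 11721 unlisted there). Gene order and start windows are from RefSeq GRCh38.p14, and 54 probe sets had a gene number that its table lacked.

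Intensities were taken as log2(value + 16) with no further normalization. Probe sets under the 40th percentile of mean log2 values (9.87 units) were left out, and the brightest probe set stood for its gene. Groups were compared over 13720 genes with limma 3.58.1 in R 4.3.3, with a variance trend and Benjamini-Hochberg adjustment at 0.05. With 60.8 prior and 4 residual degrees of freedom, small p-values lean on the fitted trend. Pairs were compared by exact two-sided permutation tests. The fit was tested on simulated PARK2 and control arrays in which 200 of 13720 genes differed: it recovered 22.4% of the 1.5-fold, 74.6% of the 2-fold and 98.5% of the 4-fold changes and called 2 unchanged genes. In the data 3957 genes were called, and the adjusted threshold depends on how many genes differ. The simulated noise was drawn gene by gene, with no shift shared by a whole array. These rates are therefore no estimate of recovery or false calls in the comparison reported here.

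Arrays correlated at 0.989 to 0.992 within groups and 0.959 to 0.961 between them, and none were duplicates. The 3'/5' ratio of actin control probe sets was 3.53 to 5.66 in PARK2 and 3.83 to 5.31 in control arrays. Group labels were taken as given, since transgene levels are not reported here. Alternatives covered the filter, pseudocount, normalization, variance model, array weights, choice of probe set, threshold, replicate block and leaving out each array. The members, the gene lists and the pairs were chosen with earlier results of these data known. By rule, values per array are given for the 8 largest rises and 8 largest falls, for related pairs with a called member and for core subunits, and for each partner list the 2 largest called differences. Outside this rule, per-array values are given for TIMM21, TIMM10, SLC25A38, SLC25A18, SLC25A37 and the untested SLC25A53, SLC25A27 and SLC25A21. These were chosen after their values were seen. Precision is limited by there being 6 arrays.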

Additional observations from a re-analysis of the deposited data

How the results depend on the processing

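Of the 16 called members 8 kept direction and call under all alternatives run: MTX3, SLC25A25, SLC25A11, SLC25A32, SLC25A39, TIMM17B, TIMM21 and TIMM23B. SLC25A32 and SLC25A39 have only an _s_at probe set each, so the alternative without _x_at and _s_at probe sets did not include them. The other 8 kept direction and lost the call under some, with adjusted p up to 0.0999 for SLC25A40, 0.153 for SLC25A30, 0.144 for SLC25A10, 0.098 for SLC25A38, 0.0685 for SLC25A35, 0.184 for SLC25A36, 0.183 for TIMM10 and 0.263 for SLC25A45. Members without a call gained one somewhere in 22 cases. Against 3 carriers higher as reported there were 7 with quantile normalization, 6 with trimmed mean scaling, 13 with array weights, 1 with the replicate number as a block and 1 at an adjusted p under 0.01, and 1 to 9 when an array was left out (lowest without PARK2 replicate 2, highest without control replicate 1). Against 8 carriers lower there were 3 with no filter on dim probe sets, 5 without _x_at and _s_at probe sets and 4 at an adjusted p under 0.01, and 4 to 8 when an array was left out (lowest without control replicate 2). Import genes higher numbered 2 with quantile normalization, 5 with array weights and 1 to 2 with an array left out, against 1. Import genes lower numbered 10 with array weights and 3 to 6 with an array left out, against 4. Array weights called 59.6% of all genes (all genes higher 4322, all genes lower 3854, against 1818 and 2139) and turned SLC25A48 to -0.33 with limma's adjusted p at 0.0437. With an array left out, all genes higher ran from 1208 (without PARK2 replicate 3) to 2800 (without control replicate 1) and all genes lower from 1550 to 2618. The cause of these shifts was not tested, apart from the fewer arrays or other genes that a setting itself brings. No scaling moved the median of all genes by over 0.1.

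Same-numbered arrays deviated together only weakly (r across genes of 0.168, 0.0453 and 0.0649, against -0.122 to 0.0687 for other numbers), and 4 of 6 arrays correlated best with their own number. This is a hint of pairing that no label states. Since not every same-number r was over 0.1, the numbers were not taken as pairs. With the replicate block 25.2% of all genes were called, against 28.8%. Dim members near the floor of 9.87 units, such as SLC25A45 and SLC25A18, are the least precise.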

Other observations

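SLC25A53, an orphan carrier gene under the filter on dim probe sets and so not tested, read 0.393, 9.69 and 4.03 units in PARK2 cells, against 11.1, 13.5 and 9.48 units in control cells. SLC25A27, an uncoupling-protein-like carrier also under the filter, read 12.7, 7.80 and 18.4 units in PARK2 cells, against 5.08, 3.79 and 6.99 units in control cells. SLC25A21, the oxodicarboxylate carrier, read 5.34, 8.18 and 5.12 units in PARK2 cells, against 4.35, 0.191 and 2.17 units in control cells. Values this dim have no test here.

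The summed intensity of the import genes was 25463, 24234 and 24822 units in PARK2 arrays and 30493, 25346 and 23392 units in control arrays. That of the carriers was 22401, 23359 and 23865 units in PARK2 arrays and 26018, 22464 and 21288 units in control arrays. Control replicate 1, the array with the highest trimmed mean, had the highest sum of both groups of genes.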
